A study of Mus musculus with 6 samples.

Results

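The blood-brain barrier genes examined here are 10 genes that encode junction, transport and caveolar proteins of brain endothelial cells: Cldn5, Ocln, Tjp1, Mfsd2a, Slc2a1, Abcb1a, Abcg2, Plvap, Cav1 and Cav2. They were chosen by name, with earlier results of these data known. All 10 were found among the 24935 genes measured and passed the filter on low values. The RNA came from the left hippocampus of C57BL/6 mouse pups at postnatal day 14 (P14). Pups kept with their dams in 85% oxygen from P2 to P14 (hyperoxia, 3 libraries) were compared with pups kept in room air (air, 3 libraries), 1 animal per library. The exposure included the dams, the study used pups of both sexes, and the labels give neither the sex nor the litter of an animal. Each value is a normalized count, the number of reads on a gene divided by 1 size factor per library, and libraries are named by the number in the deposited column. Hyperoxia and air below mean the libraries whose deposited columns carry those names. The study's text gives directions for a number of mRNAs that run against these column names, and nothing in the files used here settles which is right. If the names were exchanged, every rise below would be a fall and every fall a rise.

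Capillary endothelial cells of the brain are sealed to each other by tight junctions, hold few transport vesicles, and move nutrients and waste with carriers and pumps. Claudin-5 and occludin span the membrane at the junction and ZO-1, the product of Tjp1, ties them to actin. GLUT1 (Slc2a1) carries glucose, MFSD2A carries lipids that contain docosahexaenoic acid and is known to hold down caveolar transport, and P-glycoprotein (Abcb1a) and BCRP (Abcg2) return drugs to the blood. Caveolin-1 and caveolin-2 coat caveolae, and PLVAP forms the diaphragms of vesicles and fenestrae and is a marker of vessels that lack a barrier or have yet to form one.

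Of the 10 genes, 6 rose in the libraries labelled hyperoxia (Cldn5, Mfsd2a, Slc2a1, Abcg2, Cav1 and Cav2), 1 fell (Plvap) and 3 were not called (Ocln, Tjp1 and Abcb1a). Calls are adjusted p-values under 0.05 in limma over all 17778 genes tested. Across those genes 14.9% were called higher and 15.6% lower, 30.5% in all. The median log2 difference of the 10 genes was 0.36, against −0.01 over all genes tested. The same 6 and 1 counts were given by edgeR and DESeq2 on the recovered reads, which called 30.9% and 31.6% of all genes. The 3 hyperoxia values lay above the 3 air values without overlap in 6 of the 10 genes and below in 1, a separation seen in 22.3% and 23.8% of all genes tested, 46.1% in all. An exact two-sided permutation test of 3 libraries against 3 cannot give a p below 0.1, and each of these 7 genes reached that value.

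**Figure D1:**
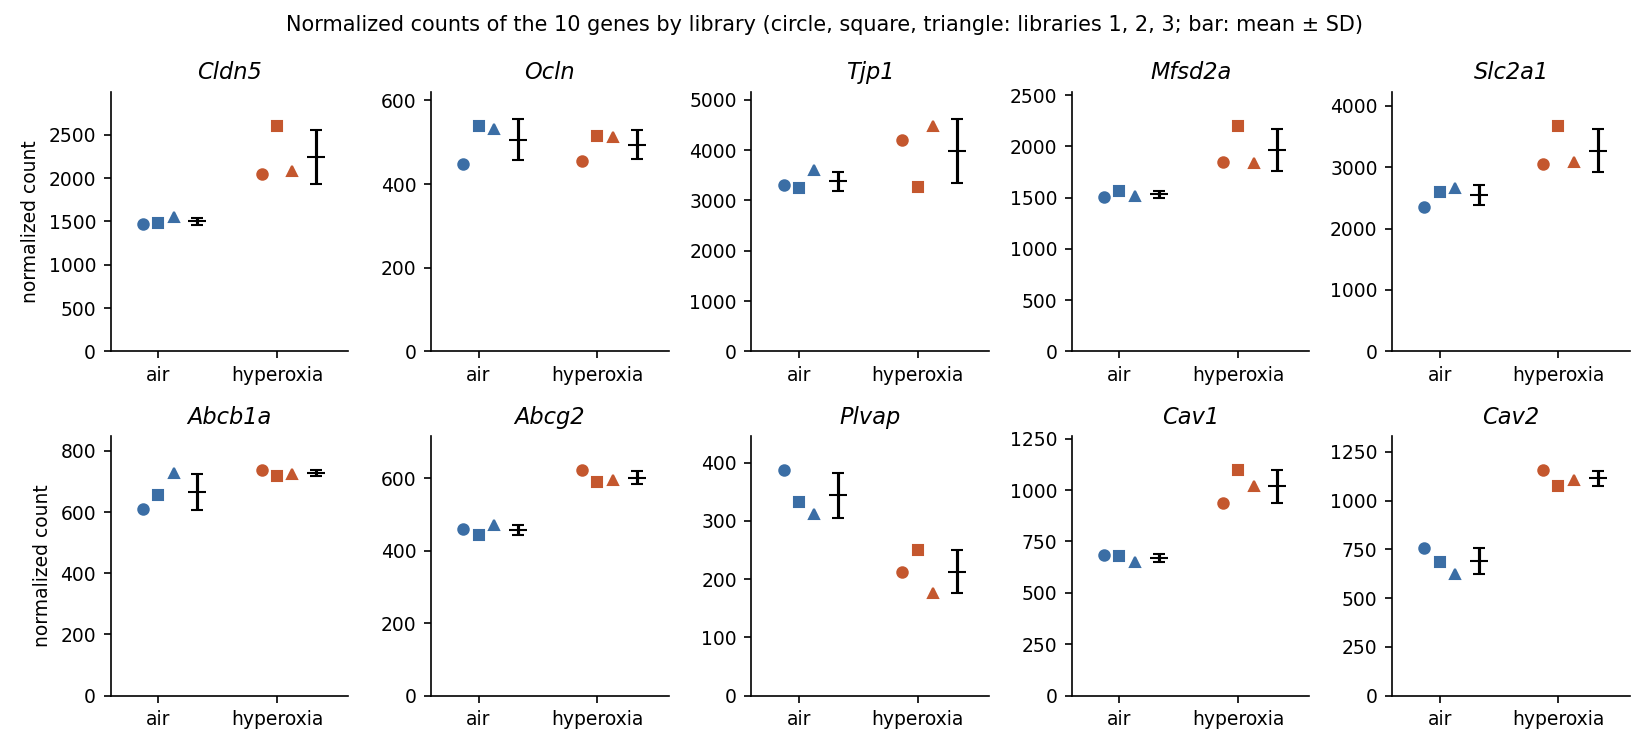
Normalized count (vertical axis, from 0) of each of the 10 genes in the 3 air libraries (blue) and the 3 hyperoxia libraries (orange), with the mean and SD of each group beside the points. Hyperoxia points lie above all air points for Cldn5, Mfsd2a, Slc2a1, Abcg2, Cav1 and Cav2 and below them for Plvap. For Ocln, Tjp1 and Abcb1a the ranges of the groups overlap.

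The libraries held between 30384052 and 38746972 reads on genes, and hyperoxia libraries 2 and 3 each stood apart in a marker list. Summed choroid plexus markers reached 8309 in hyperoxia library 3, mostly Ttr, against 511 to 1442 in the other libraries. Summed thalamus markers were 4394 to 6257 in hyperoxia, highest in library 2, and 3409.95 to 3714 in air, without overlap. Of these 7 thalamus markers, 3 were called higher and 0 lower in limma, and 2 higher and 1 lower in DESeq2. Slc17a6 had a mean of 593 in air and 1966 in hyperoxia. Lhx9, Tnnt1 and Prkcd differed by −0.51, −0.46 and −0.21 on the log2 scale, not called in limma. These genes were named after their values were seen. Markers of hippocampal neurons, the labelled tissue, were present in every library but summed to 51367 to 54852 in air and 32142 to 48243 in hyperoxia, with 4 of 8 called lower. Summed endothelial markers ranged from 11012 to 11306 in air and from 12508 to 13510 in hyperoxia, with 6 of 15 called higher and 1 lower (3 higher without air library 1, 2 lower without hyperoxia library 2). Perivascular fibroblast and meningeal markers also moved with the groups, from 8199.8 to 10305 in air and from 11039 to 16774 in hyperoxia, with 8 of 9 called higher (5 without air library 3 or hyperoxia library 1). No marker of these 5 lists was at 0 in any library. The part of the cell makeup in the differences below was not tested, and in bulk tissue more cells of a type and more RNA per cell cannot be told apart.

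Sequences before the start sites are shown for the claudin gene, the lipid carrier and the caveolins, 4 of the 6 genes called higher. Each is the 250 bases that precede a start of transcription in RefSeq (GRCm38.p6). The window of Cldn5 is chr16:18776597-18776846 on the plus strand, that of Mfsd2a is chr4:122961189-122961438 on the minus strand, that of Cav1 is chr6:17306085-17306334 on the plus strand, and that of Cav2 is chr6:17280935-17281184 on the plus strand. Capitals mark matches on either strand to 5 motifs: the ETS core CCGGAA, the core ACGTG bound by hypoxia-inducible and other basic helix-loop-helix factors, the SP/KLF box GGGCGG, the TCF/LEF core CTTTGA, and the antioxidant response element core TGACNNNGC.
Cldn5: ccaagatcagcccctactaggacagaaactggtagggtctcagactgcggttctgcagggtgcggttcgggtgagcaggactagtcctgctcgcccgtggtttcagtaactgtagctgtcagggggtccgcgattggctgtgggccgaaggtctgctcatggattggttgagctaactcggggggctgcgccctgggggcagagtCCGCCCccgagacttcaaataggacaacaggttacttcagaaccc
Mfsd2a: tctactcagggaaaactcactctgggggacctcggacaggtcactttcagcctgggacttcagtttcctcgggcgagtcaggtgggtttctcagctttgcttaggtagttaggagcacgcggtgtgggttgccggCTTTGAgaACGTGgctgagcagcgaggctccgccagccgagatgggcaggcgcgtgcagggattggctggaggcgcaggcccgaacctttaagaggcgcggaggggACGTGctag
Cav1: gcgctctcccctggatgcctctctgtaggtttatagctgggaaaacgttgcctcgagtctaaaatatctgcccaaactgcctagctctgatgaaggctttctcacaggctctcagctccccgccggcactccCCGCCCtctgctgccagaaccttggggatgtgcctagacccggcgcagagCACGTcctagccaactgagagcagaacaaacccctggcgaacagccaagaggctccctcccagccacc
Cav2: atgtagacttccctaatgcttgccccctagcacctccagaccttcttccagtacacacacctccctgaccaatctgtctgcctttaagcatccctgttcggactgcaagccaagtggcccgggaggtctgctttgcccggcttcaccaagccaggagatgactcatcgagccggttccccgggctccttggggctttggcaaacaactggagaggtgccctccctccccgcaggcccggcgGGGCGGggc

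RefSeq held 13 such windows for 9 of the 10 genes, some with several starts. Abcg2 had 3 windows and Ocln and Cav1 had 2 each. The Cav1 window not shown above, chr6:17307390-17307639 on the plus strand, held 0 matches to the 5 motifs. The SP/KLF box was in 9 of the 13 windows, from 7 genes, and in 32.7% of 32851 windows of the same length over all genes. This box holds only G and C, and the GC content of the 13 windows was 40.4% to 69.2%, against a median of 52.4% over all windows. It lay 45 to 40 bases before the start of Cldn5 and 9 to 4 bases before that of Cav2. The core ACGTG was in 3 of the 13 windows, from 3 genes (Mfsd2a, Slc2a1 and Cav1), and in 16.6% of all windows. It lay 36 to 32 bases before the start of Slc2a1 and occurred at 2 places before Mfsd2a, at 107 to 103 and 9 to 5 bases. The TCF/LEF core was in 2 of the 13 windows, those of Mfsd2a and Abcb1a, against 13.8% of all windows. The Abcb1a window lies upstream of and outside the gene span given below, and is the 1 window of the 13 whose following bases were not found in the GENCODE M21 transcripts of its gene. The ETS core was in 1 of the 13 windows, from Ocln, against 12.0%, and the antioxidant core was in none of the 13, against 10.2%. These are matches of letters and not sites shown to be bound.

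Among the junction genes, Cldn5 alone was called. Cldn5 (ENSMUSG00000041378.1, chromosome 16, 18776847 to 18778262, plus strand, GENCODE M21 on GRCm38) encodes the main claudin of brain endothelium. In air libraries 1, 2 and 3 the normalized count stood at 1470.1, 1482 and 1548, and hyperoxia libraries 1, 2 and 3 had 2047, 2604 and 2078. The lowest hyperoxia value was above the highest air value, and library 2 was the highest of all 6. The mean rose by 49.5%, from 1499.95 ± 42.2 (SD, n = 3) to 2243 ± 313 (SD, n = 3), a log2 difference of 0.57 (standard error 0.10, limma adjusted p = 0.0030). With each library left out in turn the difference stayed between 0.46 and 0.63.

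Tjp1 (chromosome 7, 65296165 to 65527781, minus strand) encodes the scaffold ZO-1, which is also made in neurons and glia. Its normalized count was 3305, 3247 and 3598 in air and 4198, 3264 and 4482 in hyperoxia. Hyperoxia library 2 lay within the air range and the other 2 lay above it. The log2 difference of 0.22 had a 95% interval from −0.03 to 0.48 (limma adjusted p = 0.16). Without hyperoxia library 2 it was 0.36 (limma adjusted p = 0.0016). Leaving out that library also raised the calls over all genes from 5425 to 7756.

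Ocln (chromosome 13, 100496507 to 100552718, minus strand) encodes occludin. Its normalized count was 449, 539 and 531 in air and 454, 514 and 513 in hyperoxia, and the groups covered nearly the same range. The log2 difference was −0.03, with a 95% interval from −0.27 to 0.20 (limma adjusted p = 0.83), which leaves out a change as large as that of Cldn5. No alternative called Ocln.

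Of the 4 transport genes, 3 were called higher. Mfsd2a (ENSMUSG00000028655.11, chromosome 4, 122946850 to 122961188, minus strand), whose product takes up lysophospholipids, was at 1511, 1569 and 1515 normalized counts in air and 1851, 2199.8 and 1836 in hyperoxia. As for Cldn5, the groups did not overlap and hyperoxia library 2 was the highest. The mean was 28.1% higher in hyperoxia, a log2 difference of 0.35 (standard error 0.09, limma adjusted p = 0.013). The call was lost without air library 1 (limma adjusted p = 0.060) and without air library 3 (limma adjusted p = 0.052).

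Slc2a1 (ENSMUSG00000028645.11, chromosome 4, 119108711 to 119137983, plus strand) encodes GLUT1, the glucose carrier of the barrier, which astrocytes and choroid plexus also express. Its normalized count was 2355, 2594 and 2666 in air and 3052, 3670.5 and 3078 in hyperoxia. All 3 hyperoxia values were above the air values, and hyperoxia library 3, which had the most choroid plexus marker reads, was close to library 1. The mean was 28.7% higher, a log2 difference of 0.36 (standard error 0.09, limma adjusted p = 0.015). The call was lost in limma without the trend (adjusted p = 0.055) and without air library 1 (0.078) or 2 (0.053). The exons of Slc2a1 overlap Gm12868 on the other strand, whose mean normalized count was 27.5.

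Abcg2 (ENSMUSG00000029802.13, chromosome 6, 58584523 to 58695676, plus strand) encodes the efflux pump BCRP. Air libraries held 459.6, 444 and 470.2 normalized counts, and hyperoxia libraries held 623, 589.9 and 595, with a tight spread within each group and no overlap. The mean rose by 31.6%, a log2 difference of 0.40 (standard error 0.08, limma adjusted p = 0.0068). When each library's trend on exonic length and GC content was removed, the difference was 0.15 (standard error 0.09, limma adjusted p = 0.23).

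Abcb1a (chromosome 5, 8660077 to 8748575, plus strand) encodes the P-glycoprotein of brain capillaries. Normalized counts of 611, 655 and 727 in air faced 737, 719 and 724 in hyperoxia. The hyperoxia values lay close together at the top of the air range, and air library 3 was above hyperoxia libraries 2 and 3. The log2 difference of 0.13 had a 95% interval from −0.07 to 0.33 (limma adjusted p = 0.28), and no alternative called it. Its paralog Abcb1b lies 49571 bases away and had a log2 difference of 0.04 (limma adjusted p = 0.85). How reads shared by the 2 paralogs were assigned is not stated, so each value is uncertain to that extent.

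**Figure D2:**
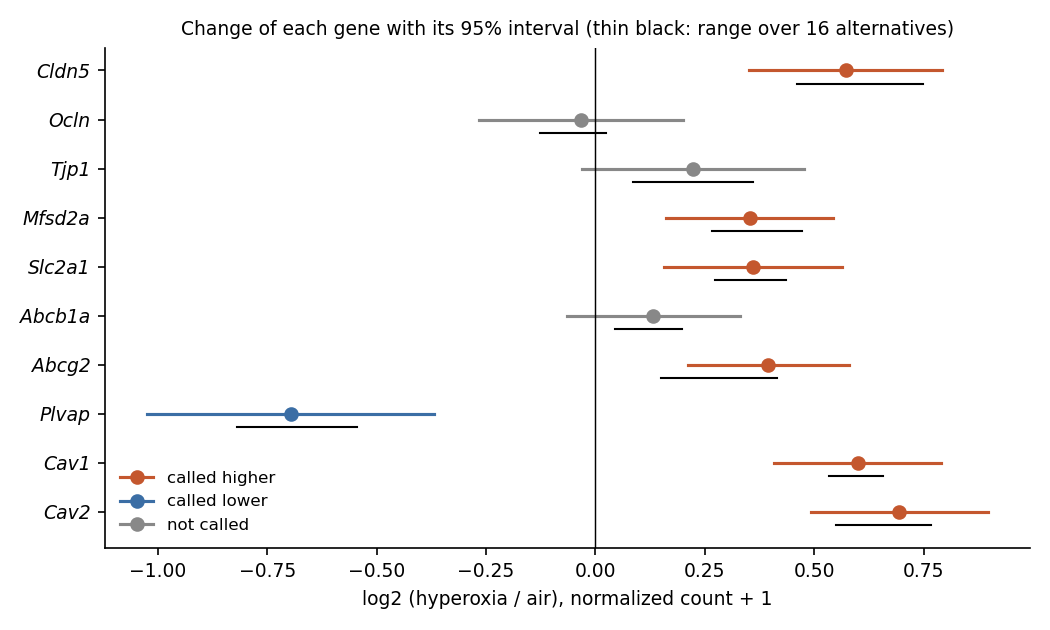
Log2 difference between hyperoxia and air (horizontal axis, on the normalized count plus 1) for each gene, with its 95% interval from limma in color and, below it in black, the range over 16 alternatives of processing and testing. The intervals of the 6 genes called higher lie above 0, that of Plvap from −1.02 to −0.37, and those of Ocln, Tjp1 and Abcb1a cross 0.

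The caveolins and Plvap moved in opposite directions. Cav1 (ENSMUSG00000007655.16, chromosome 6, 17306335 to 17341452, plus strand), whose product is the main coat protein of caveolae, was at 683, 679.8 and 649 normalized counts in air and 937, 1097 and 1020.2 in hyperoxia. The mean rose by 51.9%, from 670.5 ± 18.8 (SD, n = 3) to 1018 ± 80.1 (SD, n = 3), a log2 difference of 0.60 (standard error 0.08, limma adjusted p = 0.0014). Cav2 (ENSMUSG00000000058.6, 17281185 to 17289115, plus strand), whose product joins caveolin-1 in hetero-oligomers, is its neighbor on chromosome 6, with 17219 bases between the 2 genes. Its normalized count was 759, 684 and 626 in air and 1157, 1078 and 1107 in hyperoxia, without overlap. The mean rose by 61.5%, from 689.7 ± 66.6 (SD, n = 3) to 1114 ± 40.1 (SD, n = 3), a log2 difference of 0.69 (standard error 0.09, limma adjusted p = 0.0010). All 16 alternatives called both genes. Vascular smooth muscle and fibroblasts also express caveolins. Summed smooth muscle markers were lower in hyperoxia (1247 to 1732, against 1969 to 2362 in air), opposite to the caveolins, whereas summed fibroblast and meningeal markers were higher, as given above.

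Plvap (ENSMUSG00000034845.6, chromosome 8, 71497765 to 71511752, minus strand) was at 387, 332 and 312 normalized counts in air and 213, 250.2 and 176 in hyperoxia. Its highest hyperoxia value was below its lowest air value. The mean fell from 344 ± 38.9 (SD, n = 3) to 213 ± 37.3 (SD, n = 3), a log2 difference of −0.70 (standard error 0.15, limma adjusted p = 0.0072), and all 16 alternatives called it. Plvap is also expressed in the fenestrated vessels of the choroid plexus. Its lowest value was in hyperoxia library 3, the library with the most choroid plexus marker reads, and without that library the difference was −0.57. Plvap had the fewest reads of the 10 genes (182 to 411 per library). Counting error alone would give a coefficient of variation of 5.40% in air and 6.86% in hyperoxia, against observed values of 11.3% and 17.5%. Its span overlaps Gtpbp3 on the other strand, but no exons overlap.

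Levels were compared between genes per kb of exon (union of the exons of a gene in GENCODE M21). In air, Cldn5 was the most abundant, at 1059 ± 29.8 (SD, n = 3) normalized counts per kb. It was followed by Slc2a1 at 724 ± 46.4 and Mfsd2a at 681 ± 14.5 (SD, n = 3), whose ranges overlapped, and by Tjp1 at 433 ± 24.1 (SD, n = 3). Cav2 (207 ± 19.97), Cav1 (195 ± 5.45) and Plvap (173 ± 19.6; SD, n = 3) came next, each overlapping its neighbor in this order. Abcb1a (121 ± 10.7) and Ocln (119.95 ± 11.8) overlapped too, and Abcg2 was lowest at 56.2 ± 1.64 (SD, n = 3). In hyperoxia the order was the same except for Plvap, which at 107 ± 18.8 (SD, n = 3) stood below Abcb1a at 133 ± 1.73 (SD, n = 3) and overlapped Ocln at 117 ± 8.12 (SD, n = 3). Per kb, the ratio of Plvap to Cldn5 was 0.188, 0.160 and 0.144 in the air group (libraries 1 to 3), and 0.0742, 0.0685 and 0.0602 in the hyperoxia group (libraries 1 to 3), without overlap. The ratio of Cav1 to Cav2 overlapped between the groups (0.871 to 1.003 in air, 0.784 to 0.986 in hyperoxia).

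**Figure D3:**
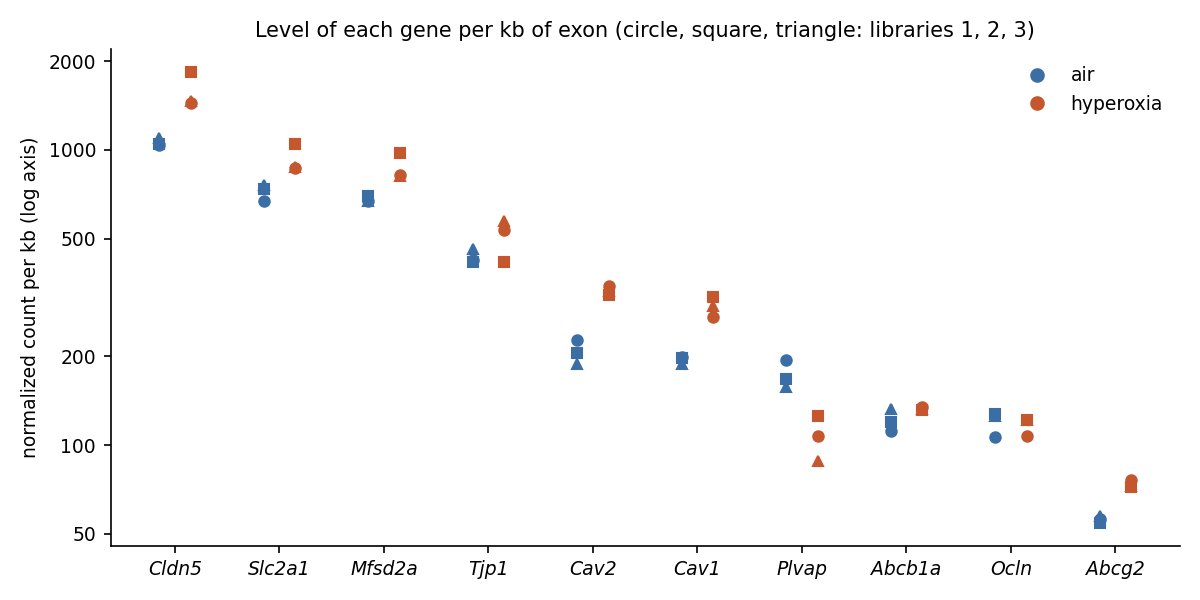
Normalized count per kb of exon (vertical log axis) of each gene in the 3 air (blue) and 3 hyperoxia (orange) libraries, ordered by the air mean. The levels span from 56.2 for Abcg2 to 1059 for Cldn5 in air, and Plvap is the only gene of the 10 whose hyperoxia points all lie below its air points.

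To set the genes beside the endothelial content of each library, the mean log2 level of 15 endothelial markers was subtracted. This mean was higher in hyperoxia by 0.16 (9.16 in air, 9.33 in hyperoxia), without overlap between groups. After the subtraction the 6 genes called higher were still higher without overlap. The share of all genes that separate on this measure was not computed. On the values before subtraction it was 46.1%, counting either direction. The log2 difference was 0.53 for Cav2, 0.43 for Cav1, 0.41 for Cldn5, 0.23 for Abcg2, 0.20 for Slc2a1 and 0.19 for Mfsd2a. Plvap was lower by 0.86 (hyperoxia −1.60 ± 0.18, air −0.74 ± 0.14, SD, n = 3 each). Each of these 7 differences had an exact permutation p of 0.1, the smallest that 3 against 3 allow. Ocln (−0.20), Tjp1 (0.06) and Abcb1a (−0.03) overlapped between groups, with exact permutation p of 0.2, 0.9 and 1. The endothelial markers did not move as 1 group, since Kdr rose by 0.61 (limma adjusted p = 0.0016) and Ly6c1 fell by 0.96 on the log2 scale (limma adjusted p = 9.8e-04). The differences after subtraction therefore depend on which markers enter the mean, and a mean without Ly6c1 was not computed. Against 10 pericyte markers in place of the endothelial ones, the same count of genes, 6 above and 1 below, did not overlap.

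**Figure D4:**
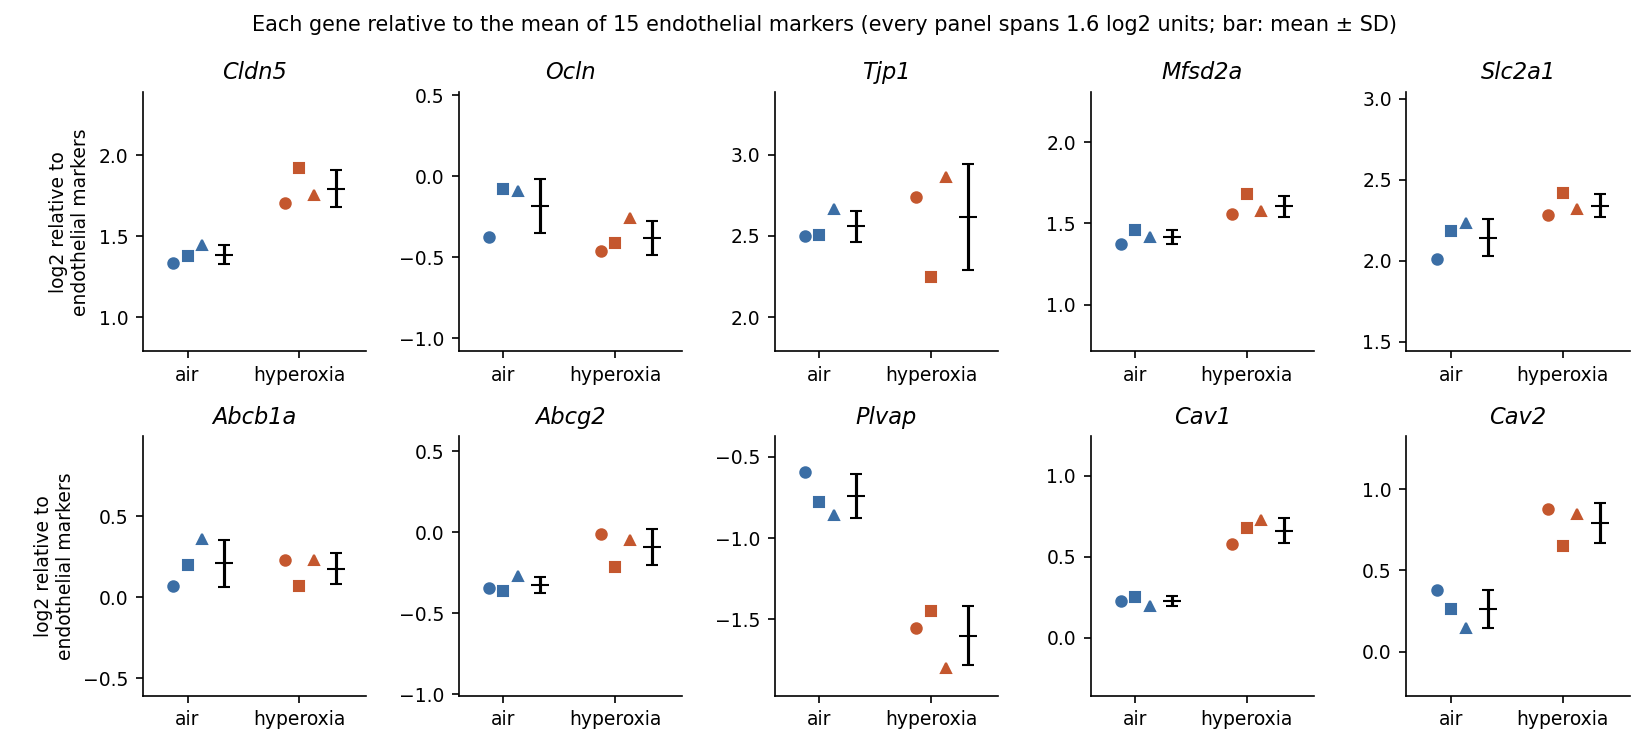
Log2 normalized count of each gene minus the mean log2 of 15 endothelial markers in the same library (vertical axis, every panel spanning 1.6 log2 units), for 3 air (blue) and 3 hyperoxia (orange) libraries with mean and SD. Cav1, Cav2 and Cldn5 keep the widest upward gaps, Plvap lies lower in hyperoxia, and Ocln, Tjp1 and Abcb1a overlap.

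Other genes of the barrier were taken from 6 lists, also chosen with earlier results of these data known. They hold 75 genes, of which 73 were tested. Of these 25 were called higher and 2 lower, 34.2% and 2.74%, against 14.9% and 15.6% of all genes tested, and the median log2 difference was 0.23. By list, the share called higher ran from 14.3% (caveola partners) to 50% (solute carriers), and the share called lower from 0% to 12.5% (receptors of transcytosis). Slco1a4, an organic anion carrier, was among those that fell (log2 difference −0.36, limma adjusted p = 0.0081), and was named after its values were seen.

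Among 15 junction partners tested, 5 were called higher and 0 lower in limma. The lower count was 0 also at an unadjusted p under 0.05 and in edgeR and DESeq2. Cldn1, another claudin, rose from 96.3 ± 13.5 to 230.3 ± 68.4 (SD, n = 3 each), a log2 difference of 1.22 (standard error 0.21, limma adjusted p = 0.0031). Cldn1 is also made by meningeal and choroid plexus cells, whose markers are given above. Esam, an endothelial adhesion molecule, rose by 0.51 (limma adjusted p = 0.0044) and Cd99l2, a relative of the adhesion protein CD99, by 0.43 (limma adjusted p = 0.0035).

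Of 18 solute carriers, 9 were called higher and 1 lower. Without air library 2 these counts were 5 and 0, and without hyperoxia library 2 the lower count was 2. Slc16a1, the monocarboxylate carrier MCT1, rose by 0.64 (standard error 0.07, limma adjusted p = 5.4e-04). Slc7a1, a cationic amino acid carrier, rose by 0.56 (standard error 0.06, limma adjusted p = 6.6e-04), and Slc40a1, the iron exporter ferroportin, by 0.87 (standard error 0.10, limma adjusted p = 5.8e-04). Of 7 other efflux pumps and ATP-binding cassette transporters, 3 were called higher: Abca1, a cholesterol exporter (0.94, limma adjusted p = 4.1e-04), Abcc1 (0.67, limma adjusted p = 0.0012) and Abcd3 of the peroxisome (0.31, limma adjusted p = 0.013). All of these genes are also expressed outside endothelium.

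Of 7 caveola partners tested, 1 was called, Ehd4, an ATPase of membrane trafficking, which rose by 0.41 (limma adjusted p = 0.014) and lost the call without air library 1 or 2 or hyperoxia library 1. This 1 call is 14.3% of the 7 partners, against 14.9% of all genes tested called higher. Over the 16 alternatives 0 to 3 partners were called higher. The coat proteins that work with the caveolins were not called: Cavin1 differed by 0.27 (limma adjusted p = 0.10), Cavin2 by 0.07 (limma adjusted p = 0.71) and Cavin3 by 0.00 (limma adjusted p = 0.99). Cavin1 was called under 2 of 16 alternatives. These 3 were named after their values were seen. Of 8 receptors of transcytosis, 2 were called higher and 1 lower (25% and 12.5%, against 14.9% and 15.6% of all genes tested). Tfrc, the transferrin receptor, rose by 0.39 (limma adjusted p = 0.034) and Lrp1 by 0.28 (limma adjusted p = 0.046), and these calls were lost under 7 and 8 of 16 alternatives. Leaving out any library but hyperoxia library 2 gave a higher count of 0, leaving out that library gave 4, and without air library 2 the lower count was 0.

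Canonical Wnt signaling is known to drive the barrier program in endothelium. Of 18 genes on that list, 5 were called higher and 0 lower in limma. The lower count was 1 (Axin2) at an unadjusted p under 0.05 and 0 in edgeR and DESeq2. The receptor gene Fzd4 rose by 0.59 (standard error 0.09, limma adjusted p = 0.0023). Its partner Tspan12 rose by 0.45 (standard error 0.08, limma adjusted p = 0.0044), and Adgra2, a coreceptor for WNT7 ligands, rose by 0.48 (standard error 0.08, limma adjusted p = 0.0022). The exons of Adgra2 overlap Brf2 on the other strand, which had a mean normalized count of 428. Of the ligands, Wnt7a differed by −0.20 (limma adjusted p = 0.16), Wnt7b by 0.32 (limma adjusted p = 0.11) and Ndp by 0.04 (limma adjusted p = 0.82). Of 4 genes that respond to the pathway, Apcdd1 rose by 0.38 (limma adjusted p = 0.0055), while Axin2 differed by −0.22 (limma adjusted p = 0.081), Nkd1 by 0.27 (limma adjusted p = 0.14) and Lef1, a transcription factor of the pathway, by 0.31 (limma adjusted p = 0.14). Of these 4, only Apcdd1 was called, and it lost the call after the length and GC correction. The largest rise on the whole list was that of Foxf2 (log2 difference 0.87, limma adjusted p = 0.0075), which all 16 alternatives called. The ligands, the 4 responding genes and Foxf2 were named after their values were seen.

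**Figure D5:**
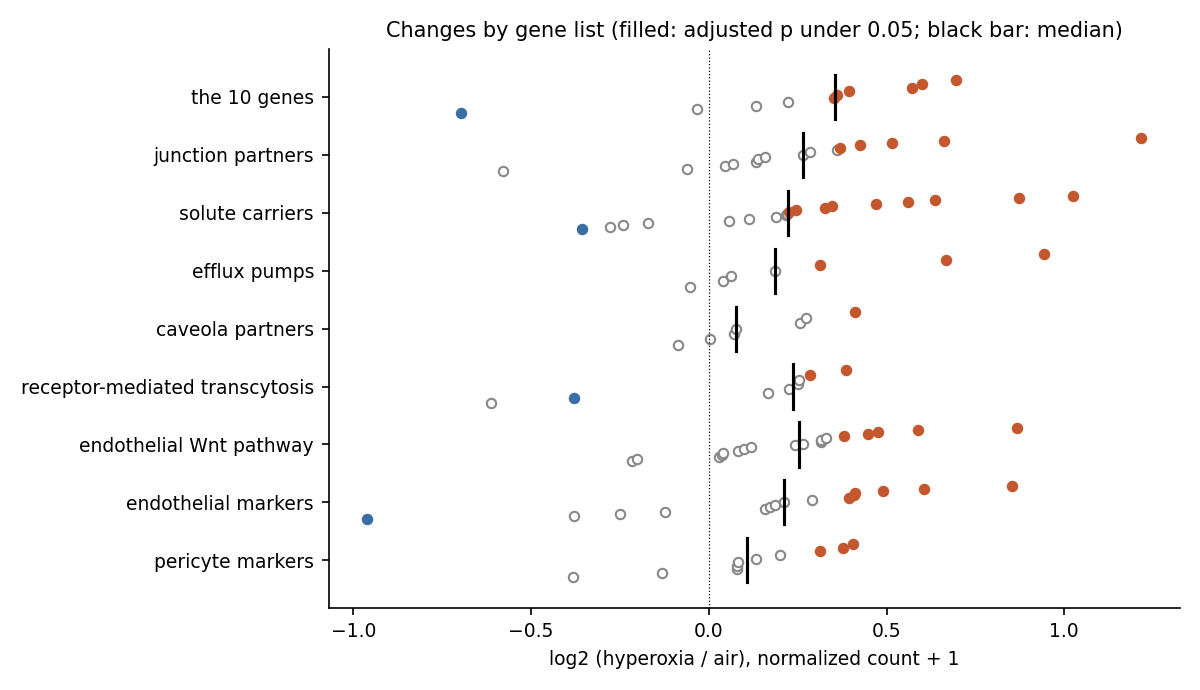
Log2 difference between hyperoxia and air (horizontal axis) for each tested gene of the 10, of the 6 lists of other barrier genes and of the endothelial and pericyte markers (rows). Filled points passed an adjusted p under 0.05 in limma (orange higher, blue lower), open points did not, and black bars are medians, which range from 0.08 for caveola partners to 0.36 for the 10 genes.

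The genes whose profile over the 6 libraries was nearest to that of a called gene were found by the root mean square distance between log2 values, each centered on the mean of its gene. The nearest was Tril for Cldn5 (0.04), Gpr180 for Mfsd2a (0.03), Fhl1 for Slc2a1 (0.03), Wwc1 for Abcg2 (0.02), Chchd10 for Plvap (0.05), 2610316D01Rik for Cav1 (0.03) and Cd74 for Cav2 (0.05). Distances are in log2 units over 6 libraries and are given as a description. None of the 3 nearest genes of any of these 7 was another of the 10 or a gene of the barrier and marker lists.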

How the data were processed

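The deposited signal is a normalized count per gene, made by the authors by dividing the reads of a library by its size factor. The submitters' processing notes name FastQC, STAR 2.5.3a, HTSeq and DESeq2. A strand-specific kit was used on polyA RNA. Genome build, annotation and the strand setting of the counting were not given in the sources used here. Fold changes and p-values of the authors' own comparison, deposited as another table, were not used. In each library 100% of the values were within 0.01 of a whole number of reads, so reads were recovered (median 449 to 576 per tested gene). Replicate pairs differed by more than sampling noise (chi-square per gene 6.51 to 47.2).

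Genes with a mean of at least 10 (17778) were tested with limma 3.58.1 (R 4.3.3, mean-variance trend) on log2 of the value plus 1, hyperoxia minus air, 3 libraries each, with Benjamini-Hochberg adjustment over all genes tested and a threshold of 0.05. This scale understates changes of genes with low values. As alternatives, the pseudocount was set to 0.5 or 5, the filter was removed or raised to 50, values were scaled by quantiles or TMM, and the trend was dropped. Further alternatives were edgeR 4.0.16 and DESeq2 1.42.0 on the recovered reads, removal of trends on exonic length and GC content (mgcv 1.9.3) and each library left out. The scripts were tested on simulated data. Positions and exonic lengths are from GENCODE M21, which held 99.68% of the gene identifiers. The genes named were the 10, up to 3 called genes with the smallest adjusted p of each barrier list and, for marker lists, summed levels. Kdr, Ly6c1, Abcb1b and the genes said to be so were named beside this rule. A result of the barrier lists that the rule names is not reported here. The 10 genes and all lists were chosen with earlier results of these data known.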

Additional observations from a re-analysis of the deposited data

How the results depend on the processing

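Over the 16 alternatives, between 4 and 7 of the 10 genes were called higher and 1 lower in each. No alternative turned the direction of a called gene. Cldn5, Cav1, Cav2 and Plvap were called under all 16, and Ocln and Abcb1a under none. Tjp1 gained a call and Mfsd2a, Slc2a1 and Abcg2 lost theirs under the settings given beside their values. Of the 73 other barrier genes tested, 25 were called higher and 2 lower. Leaving out 1 library moved these counts to between 16 and 30 higher and between 0 and 4 lower, with 16 and 0 without air library 2 and 30 and 4 without hyperoxia library 2. The other 10 alternatives gave 20 to 29 higher and 2 lower. Relative to the endothelial markers, between 1 and 2 genes lay below air without overlap when 1 library was left out, with 2 without air library 1 or hyperoxia library 3. Over all genes, 5425 were called, 3048 without air library 1, 3087 without air library 2, 3378 without hyperoxia library 1 and 7756 without hyperoxia library 2. The median log2 difference of all genes stayed within 0.03 of 0. The cause of these shifts was not tested. Counting error alone would give the 10 genes coefficients of variation of 1.59% to 6.86%, against 1.30% to 17.5% observed within groups. No paired analysis was possible because the labels number the animals from 1 to 6 with no number shared between groups, and nothing ties the numbers 1 to 3 that the columns of both groups carry to an animal, litter or batch.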

Other observations

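Markers of cells that adjoin the endothelium were measured in the same libraries, and 14.9% of all genes tested were called higher and 15.6% lower. All genes in this paragraph except the summed lists were chosen after their values were seen. Aqp4, the water channel of astrocyte endfeet, rose from 6144 ± 469.7 (SD, n = 3) in air to 8871 ± 548 (SD, n = 3) in hyperoxia, a log2 difference of 0.53 (limma adjusted p = 0.0019). Gja1, the gap junction gene of the same list, differed by −0.09 (limma adjusted p = 0.30). The pericyte gene Rgs5 rose by 0.38 (limma adjusted p = 0.0075) and Pdgfrb differed by 0.08 (limma adjusted p = 0.43). The summed pericyte markers ranged from 13504 to 14084 in air and from 15430.4 to 17571 in hyperoxia, with 3 of 10 called higher. Rgs5 made up much of this sum, with a mean of 6332 in air and 8251 in hyperoxia. Of the 3 called, Notch3 kept the call under 12 of 16 alternatives. The log2 difference was above 0 for 8 of the 10 pericyte markers. Mylk, a kinase of smooth muscle contraction, fell by 0.77 on the log2 scale (limma adjusted p = 0.0011) and was the 1 called gene of 5 smooth muscle markers tested (3 without hyperoxia library 2). The collagen genes Col1a2 and Col3a1 of fibroblasts rose by 1.09 and 0.85 (limma adjusted p = 0.0011 and 0.0013). Summed hemoglobin and Alas2 counts overlapped, from 1748 to 2835 in air and from 2527 to 4042 in hyperoxia, with 1 of 5 called higher and 1 lower, both lost without air library 1. Summed astrocyte endfoot markers ranged from 34691 to 35820.3 in air and from 37991 to 40345.5 in hyperoxia, with 2 of 6 called higher and 1 of 6 when any library but hyperoxia library 2 was left out.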
